A study of Mus musculus with 20 samples.

Results

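The regions described here are places in the mouse genome where a CTCF peak was listed in a single library, and that library was from WT cells. They were chosen from the peak lists themselves: the peaks of 4 CTCF lists were merged wherever they overlapped by at least 1 bp, and a region was kept if all its peaks came from 1 list and that list was WT replicate 1 or WT replicate 2. This left 1830 of 54729 regions (3.34%), each made of 1 peak. WT replicate 1 supplied 1201 of them and WT replicate 2 supplied 629. Whether a region was present or absent in each list is therefore what selected it, and such counts are given as a description with no test.

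CTCF is a zinc-finger protein that binds a long DNA motif, stops the cohesin ring as it extrudes chromatin loops, and so marks loop anchors and domain boundaries. TDG, a base excision repair glycosylase, cuts out oxidised forms of methylated cytosine that the TET enzymes produce. Many strong CTCF sites are occupied in most cell types, and weaker sites vary more.

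The study set mouse embryonic stem cells without TDG (TDG KO) beside WT cells, both on a 129 strain background, and asked how CTCF binding differed. Each genotype had 2 CTCF chromatin immunoprecipitation libraries and 2 polyA RNA libraries. Both genotypes were grown with LIF and serum on growth-arrested mouse embryonic fibroblasts, and the fibroblasts were reduced by repeated plating before fixation. The labels name neither separate clones nor separate cultures behind the replicates, so the p-values rest on differences among these few libraries and could reflect technical variation. The CTCF lists held 48514 and 48833 peaks for TDG KO replicates 1 and 2, and 38303 and 37099 peaks for WT replicates 1 and 2. Tdg had 5.50 and 4.74 FPKM, a level scaled by transcript length and library depth, in the TDG KO RNA libraries, against 28.1 and 30.4 FPKM in the WT libraries. All 10 embryonic stem cell markers checked were detected, with a summed level of 6246 and 6434 FPKM in TDG KO and 8138 and 8935 FPKM in WT. All 15 fibroblast markers were also detected, with a summed level of 580.2 and 631.9 FPKM in TDG KO and 781.2 and 585.7 FPKM in WT.

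Few of the single-list regions lay at gene starts. Of the 1830, 36 overlapped a RefSeq promoter window (250 bases before to 50 bases after a gene's start, GRCm38.p6). A core of the CTCF motif, spelled CCA, any pair of bases, AG, any pair of bases and GGC, and searched on both strands, was present in 2 of these 36 windows (5.56%, exact 95% interval 0.68 to 18.7%). The same letters were in 16.0% of 1312 windows overlapped by regions found in all 4 lists and in 2.43% of all 32851 RefSeq windows. For regions alone in TDG KO replicate 1 they were in 2 of 74 windows (2.70%). For regions alone in TDG KO replicate 2 they were in 6 of 66 (9.09%). 5 windows are printed because they carry these points: Abi1 and Slc29a1 are the pair with the letters (in capitals), Ucp1 and Zfp219 overlap the best-ranked promoter region of each WT list, and Phka2 lies in the dense X chromosome group described below. All are RefSeq sequences read 5′ to 3′ on the strand of the gene.
Abi1 (WT replicate 2, chr2:23040192-23040491, minus strand): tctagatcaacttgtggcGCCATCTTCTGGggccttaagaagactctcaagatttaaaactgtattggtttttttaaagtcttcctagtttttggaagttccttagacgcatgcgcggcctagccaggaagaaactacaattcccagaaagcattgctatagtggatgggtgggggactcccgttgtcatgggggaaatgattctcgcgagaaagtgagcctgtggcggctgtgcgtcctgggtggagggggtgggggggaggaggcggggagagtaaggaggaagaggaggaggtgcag
Slc29a1 (WT replicate 1, chr17:45593600-45593899, minus strand): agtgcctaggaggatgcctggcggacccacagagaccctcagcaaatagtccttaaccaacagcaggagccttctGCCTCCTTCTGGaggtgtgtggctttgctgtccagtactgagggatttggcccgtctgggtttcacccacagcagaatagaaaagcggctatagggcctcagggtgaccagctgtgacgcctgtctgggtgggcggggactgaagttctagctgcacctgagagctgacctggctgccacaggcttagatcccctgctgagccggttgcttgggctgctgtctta
Ucp1 (WT replicate 1, chr8:83290098-83290397, plus strand): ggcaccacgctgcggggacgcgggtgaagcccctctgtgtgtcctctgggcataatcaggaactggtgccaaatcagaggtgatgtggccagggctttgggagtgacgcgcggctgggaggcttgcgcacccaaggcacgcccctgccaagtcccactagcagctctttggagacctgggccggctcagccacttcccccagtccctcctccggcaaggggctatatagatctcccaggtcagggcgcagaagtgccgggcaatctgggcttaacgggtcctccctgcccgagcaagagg
Zfp219 (WT replicate 2, chr14:52020684-52020983, minus strand): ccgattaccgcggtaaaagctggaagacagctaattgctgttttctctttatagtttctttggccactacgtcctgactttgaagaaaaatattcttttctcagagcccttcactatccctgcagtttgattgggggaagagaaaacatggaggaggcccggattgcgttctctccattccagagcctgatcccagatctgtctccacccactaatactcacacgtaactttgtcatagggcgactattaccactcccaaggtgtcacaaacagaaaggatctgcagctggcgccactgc
Phka2 (WT replicate 1, chrX:160501912-160502211, plus strand): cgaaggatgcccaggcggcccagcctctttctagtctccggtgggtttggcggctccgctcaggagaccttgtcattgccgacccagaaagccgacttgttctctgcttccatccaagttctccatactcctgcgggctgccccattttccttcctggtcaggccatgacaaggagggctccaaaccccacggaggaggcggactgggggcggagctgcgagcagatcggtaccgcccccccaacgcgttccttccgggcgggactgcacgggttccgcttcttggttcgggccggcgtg

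In both Abi1, which encodes an adaptor of the actin-nucleating WAVE complex, and Slc29a1, an equilibrative nucleoside transporter, the capital letters lay inside the CTCF region. The match began 232 bases before the Abi1 start and 175 bases before the Slc29a1 start. The Phka2 window, whose region of 191 bp lay wholly inside it, held 23 CpG dinucleotides and none of these letters. By score that region ranked 31 among the 33 promoter regions of WT replicate 1. The median CpG count was 14 over the WT replicate 1 windows, 18 over those of regions in all 4 lists and 7 over all RefSeq windows. A match describes the letters in the window and not an occupied site.

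The regions of WT replicate 1 were concentrated at the distal end of the X chromosome. Of its 1201 regions, 642 (53.5%, exact 95% interval 50.6 to 56.3%) were on the X chromosome. That share was 7.95% for WT replicate 2, 1.73% for regions listed in TDG KO replicate 1 alone, 3.44% for TDG KO replicate 2 alone and 2.11% for regions in all 4 lists. All but 4 of the 642 began beyond 159 Mb of the chromosome. The regions of WT replicate 2 had a different centre of mass: 158 of 629 (25.1%, 21.8 to 28.7%) were on chromosome 4, 54 on chromosome 8 and 50 on the X chromosome. The intervals cover counting error only, since neighbouring regions come from 1 library. The 2 segments below, X from 159 Mb and chromosome 4 from 144 to 148 Mb, were delimited after the positions of the regions had been seen.

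**Figure D1:**
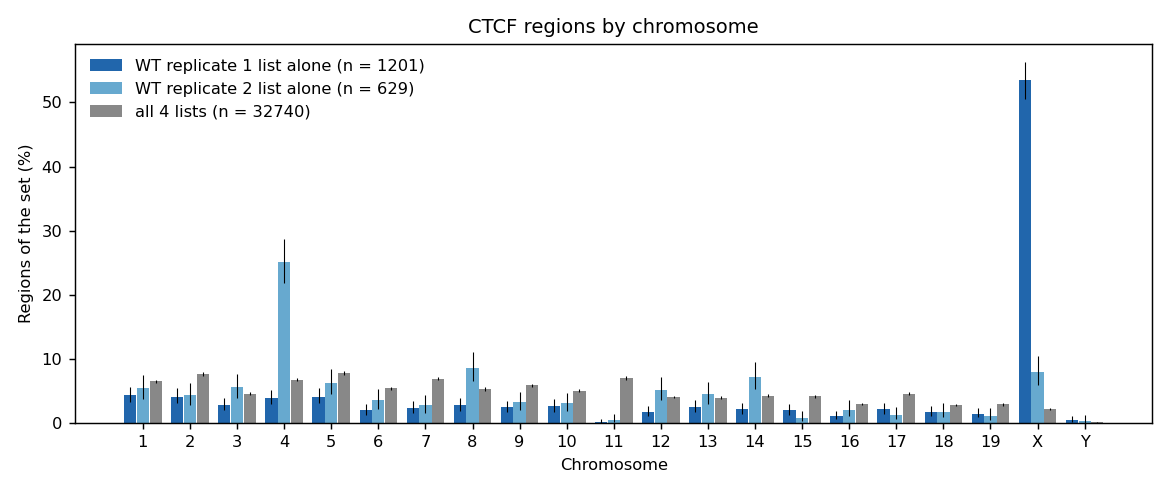
Share of regions on each chromosome (y axis, % of the set; x axis, chromosome) for regions in the WT replicate 1 list alone, the WT replicate 2 list alone and all 4 lists; lines are exact 95% binomial intervals. The X chromosome holds 53.5% of the WT replicate 1 regions and chromosome 4 holds 25.1% of the WT replicate 2 regions, against 2.11% on the X chromosome for regions in all 4 lists.

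The distal X regions formed a nearly continuous run. From chrX:159112541-161721855, 583 regions of WT replicate 1 followed each other within 100 kb, with a median spacing of 2.48 kb over 2.61 Mb. In the same stretch the lists held 20 peaks for TDG KO replicate 1, 38 for TDG KO replicate 2, 646 for WT replicate 1 and 87 for WT replicate 2. The run began sharply. The first region lay 68.8 kb past the previous WT replicate 1 peak, and X below 159 Mb held 4 single-list regions of WT replicate 1 among 697 of its peaks. It also thinned with distance: 287 regions began between 159 and 160 Mb, 225 in the next megabase, 74 in the one after and 18 between 162 and 163 Mb.

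WT replicate 2 showed a smaller number of extra peaks in the same place. Over X from 159 Mb to the end, the lists held 84 peaks for TDG KO replicate 1, 121 for TDG KO replicate 2, 804 in WT replicate 1 and 194 in WT replicate 2. WT replicate 2 had 34 regions of its own there, including runs of 12 at chrX:159162577-159547409 and 8 at chrX:159799412-160244467. A further 42 of the 93 regions shared by both WT lists and absent from both TDG KO lists lay in this segment, as did 36 regions missing from TDG KO replicate 1 alone. Single-list regions of the TDG KO libraries numbered 0 for replicate 1 and 2 for replicate 2.

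Peaks common to all 4 lists ranked differently there too. The authors' score of a peak has no stated measure, so each peak was placed by its percentile within its own list. The 77 distal X regions in all 4 lists had median percentiles of 27.6 and 46.6 in the TDG KO lists (replicates 1 and 2), against 94.9 in WT replicate 1 and 87.3 in WT replicate 2. Their median widths were 198 and 255 bp in the TDG KO lists and 399 and 339 bp in the WT lists. For the 32600 regions in all 4 lists outside these X and chromosome 4 segments, the medians were 66.0 and 66.2 in TDG KO and 56.8 and 55.2 in WT. On X below 159 Mb they were 42.9 and 44.2 in TDG KO and 36.0 and 34.3 in WT. Percentiles of lists of different length are read within each list. Both WT lists placed these distal X peaks above their own shared peaks in either comparison. Both TDG KO lists placed them below their shared peaks outside the segments. Against X below 159 Mb, TDG KO replicate 1 placed them lower and TDG KO replicate 2 placed them slightly higher, at 46.6 against 44.2.

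**Figure D2:**
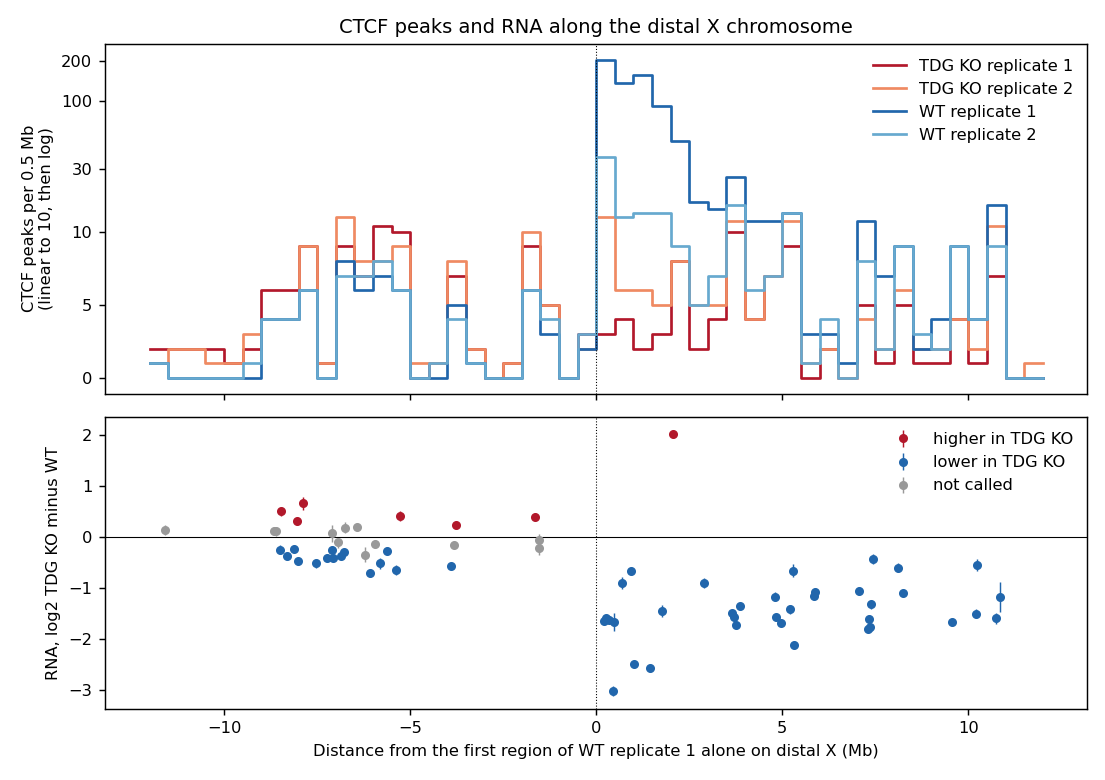
Upper panel: CTCF peaks per 0.5 Mb in each list (y axis, linear to 10 and then logarithmic) by distance in Mb from the first distal X region of WT replicate 1 alone (x axis). Lower panel: RNA change of each tested gene (log2 TDG KO minus WT, with its standard error) at the same positions, coloured by call. The 4 peak lines run close together left of 0. Over the first 3 Mb right of 0 the WT replicate 1 line is far above the others. Beyond 5 Mb it is level with or below the WT replicate 2 line in several bins. Right of 0, 36 of 37 genes are lower in TDG KO.

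The RNA libraries were not used to choose the regions, so the genes of this stretch could be tested. Genes were compared by limma on log2(FPKM + 1) with Benjamini-Hochberg adjustment over 12035 genes with a mean of at least 1 FPKM, and a gene was called at an adjusted p under 0.05. Over all genes 54% were called, 24.4% higher and 29.5% lower in TDG KO. Of 24 tested genes within 10 kb of a distal X region of WT replicate 1, 23 were lower in TDG KO and 1 was higher, with a median log2 change of -1.47. Over all genes the median log2 change was -0.04, and 1.57% were at or below -1. Of the 24 genes, 19 were at or below -1. In bulk RNA, a lower level per cell and fewer cells that express a gene cannot be told apart.

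Genes that carry many of the regions included enzymes and signalling proteins. Phka2 encodes an alpha subunit of phosphorylase kinase, which activates glycogen breakdown, and 31 regions lay within its 97.0 kb span. It had 4.67 and 4.60 FPKM in TDG KO, against 32.0 and 32.7 FPKM in WT (log2 change -2.57, standard error 0.07, limma adjusted p = 2.809e-06). Pdha1, the E1 alpha subunit of the pyruvate dehydrogenase complex that feeds acetyl-CoA to the citric acid cycle, held 11 regions in 16.2 kb. It had 109.2 and 108.5 FPKM in TDG KO and 597.7 and 627.3 FPKM in WT (log2 change -2.48, standard error 0.06, limma adjusted p = 2.809e-06). For both genes the replicates lay close together, and the rule that named them required the genotypes to be apart.

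Rps6ka3, which encodes the growth-factor-activated kinase RSK2, held 21 regions of WT replicate 1 and 4 of WT replicate 2. Its RNA was 8.40 and 8.03 FPKM in TDG KO and 26.7 and 28.8 FPKM in WT (log2 change -1.64). Map7d2, a microtubule-associated protein gene, held 26 regions and had 14.2 and 12.8 FPKM in TDG KO, against 42.0 and 44.6 FPKM in WT (log2 change -1.62). Eif1ax, a translation initiation factor gene with 3 regions, had 54.6 and 56.5 FPKM in TDG KO and 163.7 and 174.2 FPKM in WT (log2 change -1.59). All 3 were lower in TDG KO, with limma adjusted p-values of 1.558e-05 for Rps6ka3, 1.825e-05 for Map7d2 and 1.142e-05 for Eif1ax.

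The gene with most regions changed less. Sh3kbp1, an adaptor that links receptor endocytosis to the cytoskeleton, held 99 regions of WT replicate 1 across 349 kb, with a median percentile of 3.33 and none above 25.6. Its RNA was 2.86 and 3.66 FPKM in TDG KO and 7.40 and 6.47 FPKM in WT (log2 change -0.90). Map3k15, a kinase of the MAP kinase cascade, held 29 regions and had 3.95 and 3.77 FPKM in TDG KO, against 6.49 and 6.89 FPKM in WT (log2 change -0.66). Both were called lower in TDG KO.

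The lowest log2 change near these regions belonged to A830080D01Rik, with 14 regions in its span. It had 16.1 and 13.1 FPKM in TDG KO and 121.2 and 125.4 FPKM in WT (log2 change -3.00, standard error 0.10, limma adjusted p = 5.247e-06). RefSeq lists this gene under the symbol Bclaf3, and its span overlaps Gm15190 and Gm15186. No source used here says whether the authors counted by strand. Farther along, Syap1 had 9.06 and 8.25 FPKM in TDG KO and 29.4 and 32.0 FPKM in WT (log2 change -1.72). Mid1, a ubiquitin ligase of microtubules near the chromosome end, had 183.5 and 150.2 FPKM in TDG KO and 535.4 and 471.3 FPKM in WT (log2 change -1.59). Both were called lower in TDG KO.

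Scml2, a Polycomb-group gene, went the other way. It had 22.6 and 22.2 FPKM in TDG KO and 4.82 and 4.77 FPKM in WT (log2 change 2.01, standard error 0.07, limma adjusted p = 6.246e-06). It held 15 regions of WT replicate 1 in its span, and 1 of them overlapped a Scml2 promoter window. It was the 1 gene called higher in TDG KO among the 37 tested genes of distal X.

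**Figure D3:**
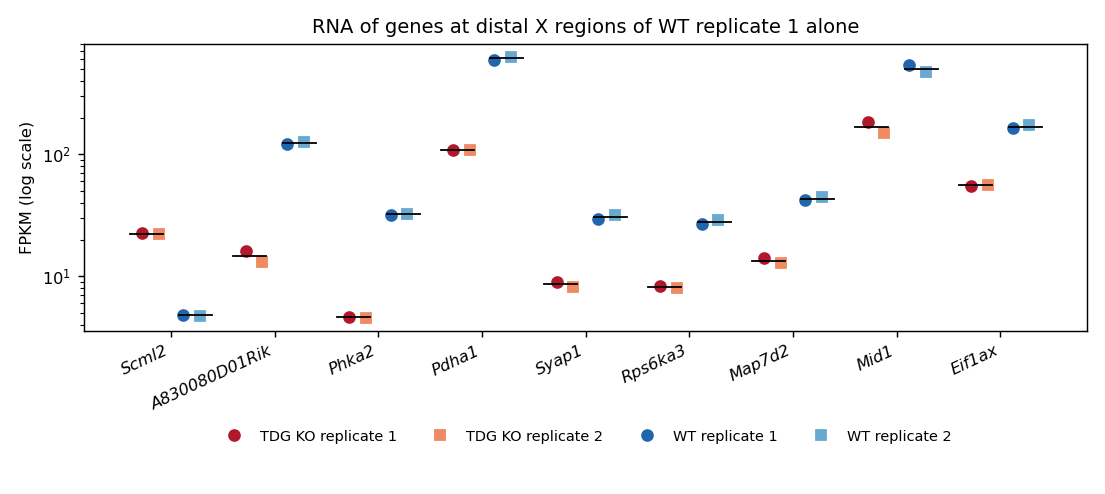
FPKM (y axis, logarithmic) of the genes within 10 kb of distal X regions of WT replicate 1 that were named by size of change, with 1 point per RNA library and a bar at the mean of the 2 libraries of a genotype. TDG KO points lie below WT points for 8 genes and above them for Scml2, at 22.6 and 22.2 against 4.82 and 4.77 FPKM.

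The lower RNA was not limited to genes with a single-list region nearby. Of the 37 tested genes on X from 159 Mb, 36 were lower in TDG KO, with a median log2 change of -1.49. The 12 of them that lay farther than 10 kb from a single-list region were all called lower, with a median of -1.55. Among them were Piga, which starts the synthesis of GPI anchors, at a log2 change of -2.11, and the centriole gene Ofd1 at -1.80. Genes from 162 Mb on, where regions were sparse, had a median of -1.41 over 25 genes, against -1.60 over the 12 genes between 159 and 162 Mb. These groups were not tested against each other. On X from 150 to 159 Mb, 6 of 32 genes were higher and 15 lower, with a median of -0.22. On X below 150 Mb, 109 of 372 were higher and 122 lower, with a median of -0.05.

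The WT RNA libraries lay close together on distal X, where the WT peak lists did not. The median log2 difference of WT replicate 1 minus WT replicate 2 over the 37 genes was -0.07, against -0.01 over all genes, while the peak lists held 804 and 194 peaks there. For Pdha1 the difference was -0.07 and for Sh3kbp1 it was 0.17. The labels give both assays replicate numbers 1 and 2 and do not say that equal numbers mark the same culture.

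The regions of WT replicate 2 were concentrated in a part of chromosome 4 rich in pseudogenes. Between 144 and 148 Mb lay 143 of its 629 regions (22.7%, exact 95% interval 19.5 to 26.2%). WT replicate 1 had 4 of its own regions there, TDG KO replicate 1 had 12 and TDG KO replicate 2 had 8. Of these 143 regions, 141 lay in 5 runs, the longest with 73 regions at chr4:146829588-147811740 and the next with 45 at chr4:145403444-145829145. In the longest run the lists held 22 peaks for TDG KO replicate 1, 26 for TDG KO replicate 2, 22 for WT replicate 1 and 99 for WT replicate 2. RefSeq places 125 genes in the 144 to 148 Mb segment, of which 67 are pseudogenes (53.6%, against 21.2% over all chromosomes) and 16 have Zfp symbols, the name given to zinc-finger genes. No source used here says how reads that map to several copies were treated.

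**Figure D4:**
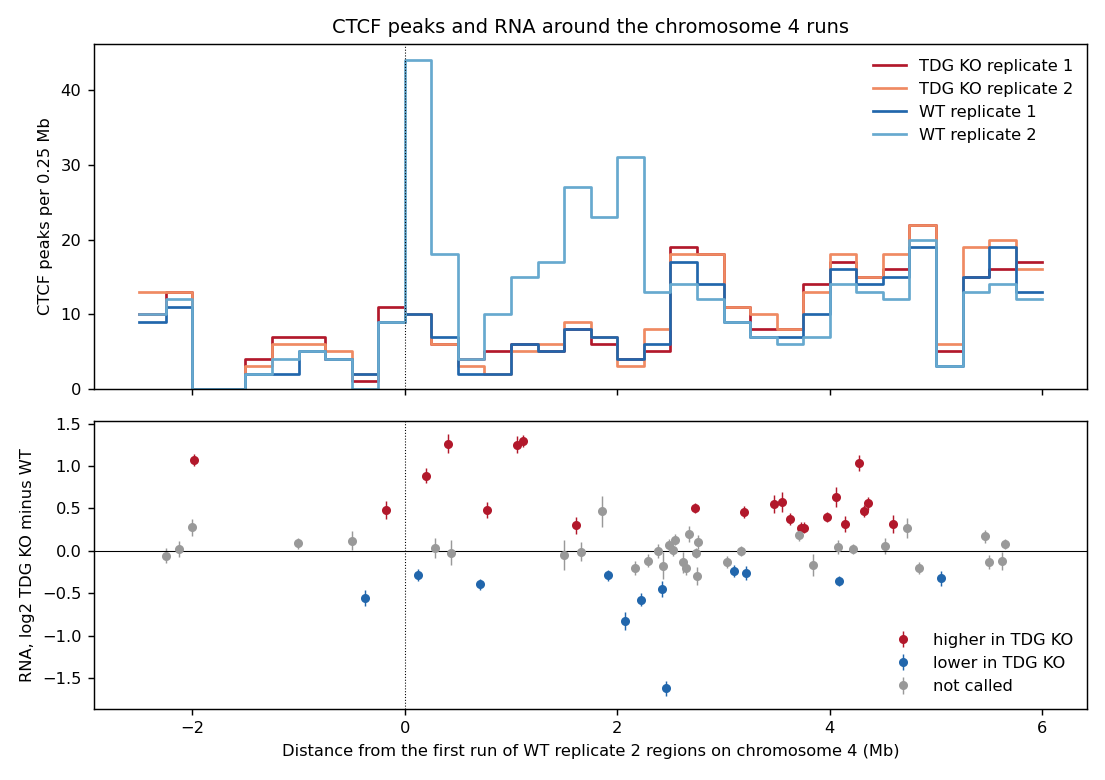
Upper panel: CTCF peaks per 0.25 Mb in each list (y axis) by distance in Mb from the first chromosome 4 run of WT replicate 2 regions (x axis). Lower panel: RNA change of each tested gene (log2 TDG KO minus WT, with its standard error), coloured by call; the WT replicate 2 line stands above the other 3 lists from 0 to 2.5 Mb, except for 1 bin where it is level with TDG KO replicate 1, and genes there lie on both sides of 0.

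The 63 regions of this segment found in all 4 lists had median percentiles of 61.2 and 60.1 in the TDG KO lists (replicates 1 and 2), against 52.7 in WT replicate 1 and 65.7 in WT replicate 2. WT replicate 2 placed them above its own shared peaks outside the segments, and the other 3 lists placed theirs below. Of 18 tested genes within 10 kb of a WT replicate 2 region there, 6 were higher and 4 lower in TDG KO, with a median log2 change of -0.01. Over the 29 tested genes of the segment the counts were 7 higher and 8 lower. Called genes made up 55.6% of the 18 and 51.7% of the 29, near the 54% over all genes.

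Gm13247 had the highest log2 change among genes near the chromosome 4 regions, with 3 regions in its span. It had 37.4 and 37.0 FPKM in TDG KO and 13.8 and 15.4 FPKM in WT (log2 change 1.30, standard error 0.07, limma adjusted p = 3.948e-05). Znf41-ps, a pseudogene, had 14.8 and 11.8 FPKM in TDG KO and 5.11 and 4.74 FPKM in WT (log2 change 1.26). Gm13152, with 9 regions, had 3.27 and 2.59 FPKM in TDG KO and 6.18 and 5.69 FPKM in WT (log2 change -0.82), and was named for its number of regions after its values were seen. Gm13145 held most regions of the segment, 18, and had 5.48 and 3.36 FPKM in TDG KO and 3.08 and 2.63 FPKM in WT, which did not pass the test (limma adjusted p = 0.06766). Near-identical copies in this cluster can share reads, so the level of any single copy is uncertain.

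Smaller runs of WT replicate 2 lay in other multi-copy clusters. Chromosome 8 held a run of 24 regions at chr8:20274754-20658691 and 1 of 7 at chr8:19685767-19802915, where 7 of 12 and 3 of 4 RefSeq genes are pseudogenes. Chromosome 5 held runs of 9 and 8 regions at Speer4d and Speer4e, members of a rodent family of testis-expressed genes. Chromosome 12 held runs of 8, 5 and 5 regions within Igh, the immunoglobulin heavy chain locus, beside its variable gene segments. Chromosome 13 held a run of 7 at chr13:12766776-12915616 beside Prl2c3, a prolactin family gene. In all, 15 runs held 234 of the 629 regions of WT replicate 2 (37.2%). For WT replicate 1, 5 runs held 609 of 1201 (50.7%), and the 1 run off the X chromosome had 6 regions at the end of chromosome Y.

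Members of both lists sat at the low end of their own list's scores. The median percentile was 4.77 for the WT replicate 1 regions and 5.67 for the WT replicate 2 regions, and 75.3% and 73.1% of them were below the tenth percentile. Regions alone in TDG KO replicate 1 and TDG KO replicate 2 were also low, at medians of 7.56 and 8.11. Peaks in all 4 lists had medians of 56.8 in WT replicate 1 and 55.3 in WT replicate 2. The distal X regions of WT replicate 1 and its regions outside both segments had the same median percentile, 4.77. They differed in width: the median was 216 bp on distal X and 177 bp outside the segments, and all 37 regions of WT replicate 1 that were 500 bp or wider lay in runs.

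**Figure D5:**
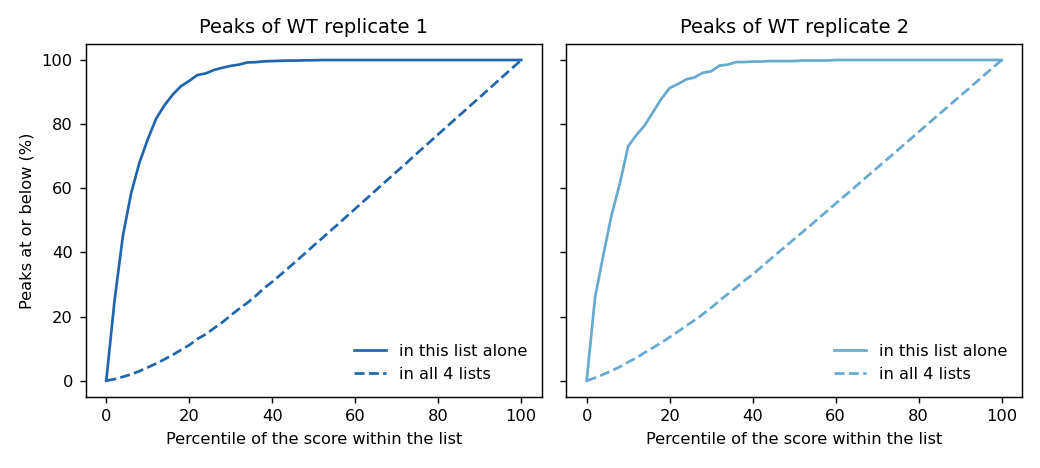
Cumulative share of peaks (y axis, %) by the percentile of the score within the list (x axis) for regions in that list alone (solid) and peaks of regions in all 4 lists (dashed), with WT replicate 1 on the left and WT replicate 2 on the right. The solid curves rise steeply, with medians at percentiles 4.77 and 5.67, and the dashed curves climb almost evenly.

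A few regions were exceptions to the low scores. In WT replicate 1 the best-ranked was chrX:159157149-159157530, at percentile 51.2, and 3 others of its top 5 lay within the first 0.1 Mb of the X chromosome run. The remaining one, chr16:34743014-34743195 at percentile 47.5, lay 2004 bp from Mylk, the gene for myosin light chain kinase. In WT replicate 2 the best-ranked was chr9:95473030-95473259, at percentile 58.3, inside U2surp, a splicing factor gene. The next were chr6:133171384-133171589 at percentile 51.3 and chr12:55720378-55720676 at percentile 42.1, inside Ralgapa1, which encodes a subunit of a Ral GTPase-activating complex. Above the middle of their own list were 1 region of WT replicate 1 and 2 of WT replicate 2.

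Most regions were well separated from the peaks of the other lists. The median distance to the nearest peak of another list was 8.74 kb for WT replicate 1 and 9.04 kb for WT replicate 2. Within 1 kb of such a peak were 169 regions of WT replicate 1 (14.1%) and 82 of WT replicate 2 (13.0%). Near the edge of the rule, 10 of 1830 regions were within 50 bp of a peak of another list, the closest at gaps of 2, 4, 5, 24 and 28 bp. Just outside it were regions of 2 lists whose peaks overlapped by 5, 5, 8, 25 and 26 bp. Only 6 of 1388 regions made of 2 peaks from 2 lists, with a WT list among them, overlapped by under 50 bp.

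Most members lay inside genes and few at gene starts. RefSeq gene spans held 64.7% of the WT replicate 1 regions, 66.9% of the WT replicate 2 regions and 60.5% of regions in all 4 lists. Promoter windows overlapped 33 regions of WT replicate 1 (2.75%), 3 of WT replicate 2 (0.477%) and 4.01% of regions in all 4 lists. Gene spans held 60.48% of regions alone in TDG KO replicate 1 and 58.45% of those alone in TDG KO replicate 2. Their promoter shares were 2.099% and 1.844%, below WT replicate 1 and above WT replicate 2. Promoter shares below that of regions in all 4 lists were thus common to single-list regions of both genotypes. The share in WT replicate 1 was 0.94% on distal X and 4.80% elsewhere. The median distance to a gene start was 45.9 kb for its distal X regions, 15.9 kb for its other regions, 25.8 kb for WT replicate 2 and 18.0 kb for regions in all 4 lists.

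The RNA of genes with a region at their promoter was read beside the shares over all tested genes, 24.4% higher and 29.5% lower. Of the 33 windows with a WT replicate 1 region, 12 had no tested gene under the window's symbol. The rest belonged to tested genes, 4 higher in TDG KO, 11 lower and 6 not called. The shares over all tested genes stand beside these tested genes and not beside the 33 windows. Phka2, Map7d2 and Mid1 were among the lower genes and Scml2 among the higher, all on distal X and counted above. A gene tested under an older symbol falls among these 12, as Mindy1 does, which the RNA names Fam63a. Slc29a1 had 153.7 and 162.5 FPKM in TDG KO and 210.4 and 199.2 FPKM in WT (log2 change -0.37, limma adjusted p = 0.003606). Abi1, from WT replicate 2, had 20.8 and 21.0 FPKM in TDG KO and 29.1 and 30.4 FPKM in WT (log2 change -0.49, limma adjusted p = 0.0008697). Zfp219, a zinc-finger gene whose window was overlapped by 55 bp, had 34.6 and 36.9 FPKM in TDG KO and 24.6 and 24.1 FPKM in WT (log2 change 0.54, limma adjusted p = 0.0007301). Ucp1, the uncoupling protein of brown fat, was also among the 12 windows without a tested gene.

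Outside distal X and the chromosome 4 segment, 593 tested genes lay within 10 kb of a region, and 103 were higher and 215 lower in TDG KO (17.4% and 36.3%). The shares over all genes were 24.4% and 29.5%, and the median log2 changes were -0.12 near these regions and -0.04 over all genes. Near regions alone in a TDG KO list, 927 of 3131 genes were higher and 856 lower. For regions in all 4 lists the counts were 2206 higher and 2441 lower of 8713. These sets overlap in genes and were not tested against each other.

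Genes with large changes near the remaining WT replicate 1 regions had varied roles. Bcas1, known from myelinating oligodendrocytes, had 12.5 and 14.7 FPKM in TDG KO and 2.76 and 2.99 FPKM in WT (log2 change 1.91). Map1b, a microtubule-associated protein of neurons, had 8.35 and 7.15 FPKM in TDG KO and 2.88 and 2.52 FPKM in WT (log2 change 1.24). Slc2a1, the glucose transporter GLUT1, had 183.1 and 181.2 FPKM in TDG KO and 92.6 and 105.6 FPKM in WT (log2 change 0.87). All 3 were called higher in TDG KO.

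Fst, which encodes the activin antagonist follistatin, had 3.44 and 4.26 FPKM in TDG KO and 11.6 and 9.58 FPKM in WT (log2 change -1.25). Gm14393 had 8.55 and 8.98 FPKM in TDG KO and 22.8 and 20.5 FPKM in WT (log2 change -1.21). Epb41l4a, a FERM-domain protein gene, had 18.5 and 18.9 FPKM in TDG KO and 42.0 and 44.7 FPKM in WT (log2 change -1.17). Ptp4a1, a tyrosine phosphatase gene, had 107.1 and 75.6 FPKM in TDG KO and 202.9 and 184.2 FPKM in WT (log2 change -1.09). All 4 were called lower in TDG KO, as the rule that named them required.

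Near WT replicate 2 regions the highest log2 changes were those of the neighbouring genes Gbp2b and Gbp2, interferon-inducible GTPases. The Gbp2 span held 1 such region, at percentile 0.055 of its list. Gbp2b had 10.6 and 10.1 FPKM in TDG KO and 0.38 and 0.63 FPKM in WT (log2 change 2.92). Gbp2 had 17.5 and 16.4 FPKM in TDG KO and 1.40 and 1.37 FPKM in WT (log2 change 2.91). Both were called higher, and the related sequences of the pair could share reads.

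Gene lists assembled for these cells met few of the regions outside distal X. Of a list of 45 genes chosen for distal X, 28 were tested. In TDG KO 26 were lower and 1 was higher, with a median log2 change of -1.50. In that list 18 of the 28 lay within 10 kb of a region and all 18 were lower. This list was taken from the place where the regions cluster, so its direction largely repeats the counts above. Not all of its tested genes were among the 37 of distal X, which were all called. Counts in the lists that follow stand beside 24.4% of all tested genes called higher, 29.5% called lower and a median log2 change of -0.04. Of 16 CTCF and cohesin genes, 2 were higher and 12 lower (median -0.36), and Pds5b, a cohesin regulator, was the 1 near a region. It had 12.9 and 11.3 FPKM in TDG KO and 13.4 and 14.0 FPKM in WT, which did not pass the test (limma adjusted p = 0.138). Ctcf itself had 42.5 and 41.1 FPKM in TDG KO and 48.8 and 52.5 FPKM in WT (log2 change -0.27, limma adjusted p = 0.01176).

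No tested gene of 5 further lists lay within 10 kb of a region, and over all tested genes 54% were called. Among 24 naive pluripotency genes 6 were higher and 11 lower in TDG KO (median -0.18), and among 16 primed epiblast genes 11 were higher and 5 lower (median 1.00). Among 24 imprinted genes 13 were higher and 4 lower (median 0.39), and among 15 DNA methylation and demethylation genes 5 were higher and 6 lower (median -0.15). Of 3 tested genes of the X inactivation centre, 1 was higher and 1 lower (median -0.01).

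Of the fibroblast markers, which could report remaining feeder cells, 3 lay within 10 kb of a region: Fn1 (fibronectin), Postn (periostin) and Col5a1 (a fibrillar collagen chain). Of 15 such markers, 1 was higher and 10 lower in TDG KO (median log2 change -0.72), beside 24.4% higher and 29.5% lower over all tested genes, and in the RNA all 15 had their higher WT level in replicate 1. Fn1 had 125.1 and 120.5 FPKM in TDG KO and 228.0 and 187.3 FPKM in WT (log2 change -0.75). Postn had 5.97 and 5.78 FPKM in TDG KO and 12.6 and 8.47 FPKM in WT (log2 change -0.72). Col5a1 had 10.1 and 11.3 FPKM in TDG KO and 14.8 and 10.2 FPKM in WT, which overlapped and did not pass the test (limma adjusted p = 0.3395). The part of feeder cells in the RNA changes and in the difference between the WT peak lists was not tested.

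The counts depend on where the peak lists end. When each list was cut to its 37099 strongest peaks and merged anew, 425 of 1899 regions then alone in WT replicate 1 (22.4%) lay on distal X. With the peaks above the median score of each list, 14 of 334 such regions did (4.19%). A cut also removes matching peaks of other lists, so both sets take in regions shared in the full lists. Of the 1201 regions alone in the full WT replicate 1 list, 1 was above the median score. A region in a single list means that no peak was called in the other 3, and the read coverage there was not used.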

How the data were processed

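CTCF peak lists of 4 libraries (2 TDG KO, 2 WT) and a table of FPKM for 4 RNA libraries were analysed. The deposited lists give each peak's position in mm10 and a score made by the authors on no stated scale, 1 list per library. Tools listed, without roles, in the submitters' processing notes are TopHat2 2.1.1, Cufflinks 2.2.1, Cuffdiff, Bowtie2 2.2.9, MACS2 2.2.1 and deepTools; no source used here states the control, threshold or strand setting. FPKM were deposited by the authors per library. The authors' deposited p-values and q-values were not used; that table gave gene names and positions only.

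Peaks were merged at an overlap of 1 bp; shares carry exact 95% binomial intervals for counting error only. Neighbours within 100 kb, at least 5, form a run. limma 3.58.1 (R 4.3.3) with trend tested log2(FPKM + 1) for genes with a mean of at least 1 FPKM, 2-sided, with no block; folds of low genes are understated on this scale. Relative read depth was estimated as the inverse of the most frequent FPKM ratio to WT replicate 2, over genes very low in both libraries. It was 1.16, 1.08 and 1.17 for TDG KO replicate 1, TDG KO replicate 2 and WT replicate 1. Only 18.7 to 22.3% of those genes were at that ratio, and scaling between libraries was not separated from depth. Absolute depth is unknown. The 2 against 2 design cannot fall below an exact permutation p of 0.3333 for a single value. A gene was near a region if its span lay within 10 kb. RefSeq (GRCm38.p6) placed 11859 of 12035 tested genes. Python 3.11.15 was used for the rest, and the region merge and the limma fit were tested on simulated data.

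Named genes were Tdg, Ctcf, up to 8 called genes in each direction (mean of at least 5 FPKM, groups apart) near WT replicate 1 regions on the X chromosome, up to 4 in each direction elsewhere and near WT replicate 2 regions, and up to 3 list members; others were named for their number of regions or their promoter after values were seen. The members, lists and rules were chosen with earlier results of these data known. Alternatives covered the merge distance, the score cutoff, lists and libraries left out, the pseudocount, the FPKM filter, scaling and a replicate block. Input, IgG and RNA polymerase II libraries were not analysed here. The values of 1 distal X gene are not reported here.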

Additional observations from a re-analysis of the deposited data

How the results depend on the processing

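The counts of single-list regions kept within 1.5 times their value when peaks had to overlap by 50 bp or could lie 100 or 500 bp apart. They moved with the score cutoff: 1899 regions for WT replicate 1 and 1838 for WT replicate 2 with the 37099 strongest peaks of each list, and 334 and 417 with the peaks above each list's median score. Leaving out 1 other list gave 1299 to 1642 for WT replicate 1, highest without TDG KO replicate 2, and 723 to 1025 for WT replicate 2, highest without TDG KO replicate 1. The X chromosome held 37.8% of all single-WT-list regions and 1.64% without X from 150 Mb on. With 1 list left out it held 12.9 to 52.8%, lowest without WT replicate 1. Merged anew, the strongest peaks gave 15.3% and the peaks above the median scores gave 5.46%. The cut to 37099 left WT replicate 2 whole and removed weaker peaks of the TDG KO lists, which held 48514 and 48833. Regions shared in the full lists then became single-list regions. The shares after a cut therefore do not describe the stronger of the 1830 regions. The X share above the median scores and under the left-out lists, the distal X gene count, the segments and the runs were added after the data had been seen.

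Called genes numbered 6496, of which 353 lay near a region. Upper-quartile scaling gave 6403 (3236 higher, 3167 lower in TDG KO), and leaving out 1 library gave 4947 to 5350 in all, 268 to 306 near a region and 34 to 36 lower on distal X. A 50 kb neighbourhood gave 659 called genes. With the replicate number as a block, 6696 genes were called, 362 of them near a region. Deviations of equally numbered libraries had a correlation across genes of -0.02. No shared deviation was seen, which cannot show whether the libraries were handled in pairs. Of the named changes, Postn missed the threshold without the FPKM filter (adjusted p = 0.0624) and without either TDG KO library, and Col5a1 turned to a log2 change of 0.062 without WT replicate 1 and passed it, at -0.44, without WT replicate 2; the cause was not tested.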
